A study of Mus musculus with 4 samples.

Results

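The microRNA processing machinery is described here through 10 genes in Beta-TC-6 cells, a mouse pancreatic beta cell line, after depletion of the RNA-binding protein NF45. The genes are Drosha, Dgcr8, Ddx5 and Ddx17 of nuclear processing, Xpo5 and Ran of export, Dicer1 and Tarbp2 of dicing, and Ago1 and Ago2 of loading. They were chosen by name, and a gene was measured where a probe set carried its symbol and no other. This held for 9 of the 10, each with 1 such probe set, among 22180 genes in all. Dgcr8 was left without a value, since its probe set carried 2 symbols, Dgcr8 and Mir1306. Cells of both groups were grown in medium with 25 mM glucose and 15% serum. In the siNTC group (2 samples) they were transfected with a negative control siRNA, and in the siNF45 group (2 samples) with a mixture of 3 RNAi duplexes against NF45, the product of Ilf2, so that every sample had received a lipid transfection. Total RNA of each sample was hybridized to 1 Affymetrix Mouse Gene 2.1 ST array. No label tells if the arrays of a group stem from separate cultures, so a p-value here covers the spread among these arrays alone, which could be technical.

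MicroRNAs are made in steps. In the nucleus the RNase III enzyme Drosha, held by its partner DGCR8 in the Microprocessor complex, cuts a hairpin out of a long primary transcript, with the helicases DDX5 and DDX17 as accessory factors. Exportin-5, with the GTPase Ran, carries the hairpin to the cytoplasm, where Dicer with its partner TRBP (the product of Tarbp2) cuts off the loop, and an Argonaute protein takes up 1 strand and uses its seed, bases 2 to 8, to find target messages. In beta cells this pathway yields microRNAs that are known to act on insulin secretion and cell identity. NF45 works in a protein complex with affinity for double-stranded RNA, some primary microRNA transcripts included.

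Of these genes, 3 contain microRNA hairpins of their own. The hairpins are shown because Mir1306 is the reason why Dgcr8 has no value here and Mir3064 shares a second Ddx5 probe set that was left out. RefSeq's microRNA table (GRCm38.p6) placed 4 hairpins within the spans of the 10 genes, all on the strand of the host. Mir1306 lies at chr16:18284239-18284317 (minus strand) in Dgcr8, a gene that spans chr16:18253948-18289251. Mir3064 lies at chr11:106782693-106782759 (minus strand) in Ddx5, and Mir693 at chr17:46231531-46231619 (plus strand) in Xpo5. Of the hairpin of miR-3618, also in Dgcr8, at chr16:18284550-18284637 (minus strand), only the 5p product is shown. As background, Microprocessor is known to cut hairpins in the Dgcr8 message itself. Sequences run 5′ to 3′, and capitals mark the seeds of the mature products.
Mir1306 hairpin: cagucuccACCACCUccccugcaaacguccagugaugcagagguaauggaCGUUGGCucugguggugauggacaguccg
Mir3064 hairpin: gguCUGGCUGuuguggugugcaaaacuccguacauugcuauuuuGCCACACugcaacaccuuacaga
Mir693 hairpin: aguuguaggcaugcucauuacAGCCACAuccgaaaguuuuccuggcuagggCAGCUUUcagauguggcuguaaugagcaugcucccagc
miR-3618-5p: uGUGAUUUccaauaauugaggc
The 4 hairpins give 8 mature products with 8 different seeds, so none of them share a seed. Mir693 had a probe set of its own, which read 1.41 and 2.03 in siNTC and 1.45 and 1.43 in siNF45 (log2), below the signal filter.

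The deposited values are expression values per probe set and were taken as log2. Each gene was tested if its mean over the 4 arrays reached 1.645, the signal filter. The 4 arrays had medians of 1.64 to 1.66 and upper quartiles of 3.2 to 3.36. Ilf2 itself read 5.79 and 5.98 in siNTC and 3.67 and 3.77 in siNF45, with an exact permutation p of 0.333, the smallest that 2 arrays against 2 allow. Its difference was -2.165 (SE 0.13, limma adjusted p = 0.020). With the replicate number as a block the limma adjusted p of Ilf2 was 0.258. The 13 tested beta cell markers had a median difference of -0.045, and none passed over all genes. Iapp, which encodes islet amyloid polypeptide, read 10.09 to 10.17 and the transcription factor Pdx1 6.44 to 6.55 on all 4 arrays. The lowest were Kcnj11, the pore of the KATP channel, at 4.26 and 3.93 in siNTC against 3.36 and 2.79 in siNF45, and the prohormone convertase Pcsk1, at 7.01 and 7.14 against 6.62 and 6.66 (limma adjusted p = 0.134 and 0.180). Of 20 markers of acinar, duct, endothelial, immune and mesenchymal cells, 19 had a probe set of their own and 4 reached the signal filter. Of these, the duct keratin Krt7 read 3.41 and 3.13 in siNTC and 3.91 and 3.96 in siNF45 (limma adjusted p = 0.132), while Cd68, Vim and Col1a2 differed by -0.16, -0.275 and -0.19. The mean value over the 19, most of them dim, was 1.49 on both siNTC arrays and 1.47 and 1.49 in siNF45. Hormones of other islet cells differed by -0.885 for somatostatin (Sst), 0.515 for pancreatic polypeptide (Ppy) and -0.02 for glucagon (Gcg). Of the other tested markers of such cells, Irx2 differed by -0.39 and Irx1 by -0.55, the latter near the filter at 1.92 and 1.96 in siNTC and 1.5 and 1.28 in siNF45. Sst, Irx1 and Irx2 were lower at an unadjusted p under 0.05 in limma's test, 60% of 5 tested markers against 13.2% of all tested genes. None of the 5 passed over all genes. The part of such cells in the values below was not tested.

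Drosha stood lowest among the processing genes relative to its control after NF45 depletion, followed by Ddx17 and Tarbp2, while Dicer1 and Xpo5 did not read lower. None of the 9 measured genes passed the adjusted threshold of 0.05 in limma's test over 11742 genes, where 0.0852% of all tested genes did. The same held at a looser adjusted threshold of 0.10, which 1.62% of all tested genes passed. At an unadjusted p under 0.05, Drosha, Ddx17 and Tarbp2 were lower and none was higher, against 13.2% of all tested genes lower and 4.02% higher. This count moved with the fit. It was 1 after each array was centred on the median of the tested genes, where 869 of all tested genes were lower and 1251 higher, and also 1 without siNTC replicate 1, without siNTC replicate 2 or without siNF45 replicate 2. Both siNF45 arrays read below both siNTC arrays for 5 of the 9, against 32.6% of all tested genes, and above them for 1, Xpo5, against 15.2%. In all, 7 of 9 differences lay below 0, as did 61.3% of all tested genes. The median difference of the 9 was -0.195 and that of all tested genes -0.065 (siNF45 minus siNTC, log2). With 9 genes these shares are a description. In bulk RNA, fewer cells with a transcript and less of it per cell cannot be told apart.

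**Figure D1:**
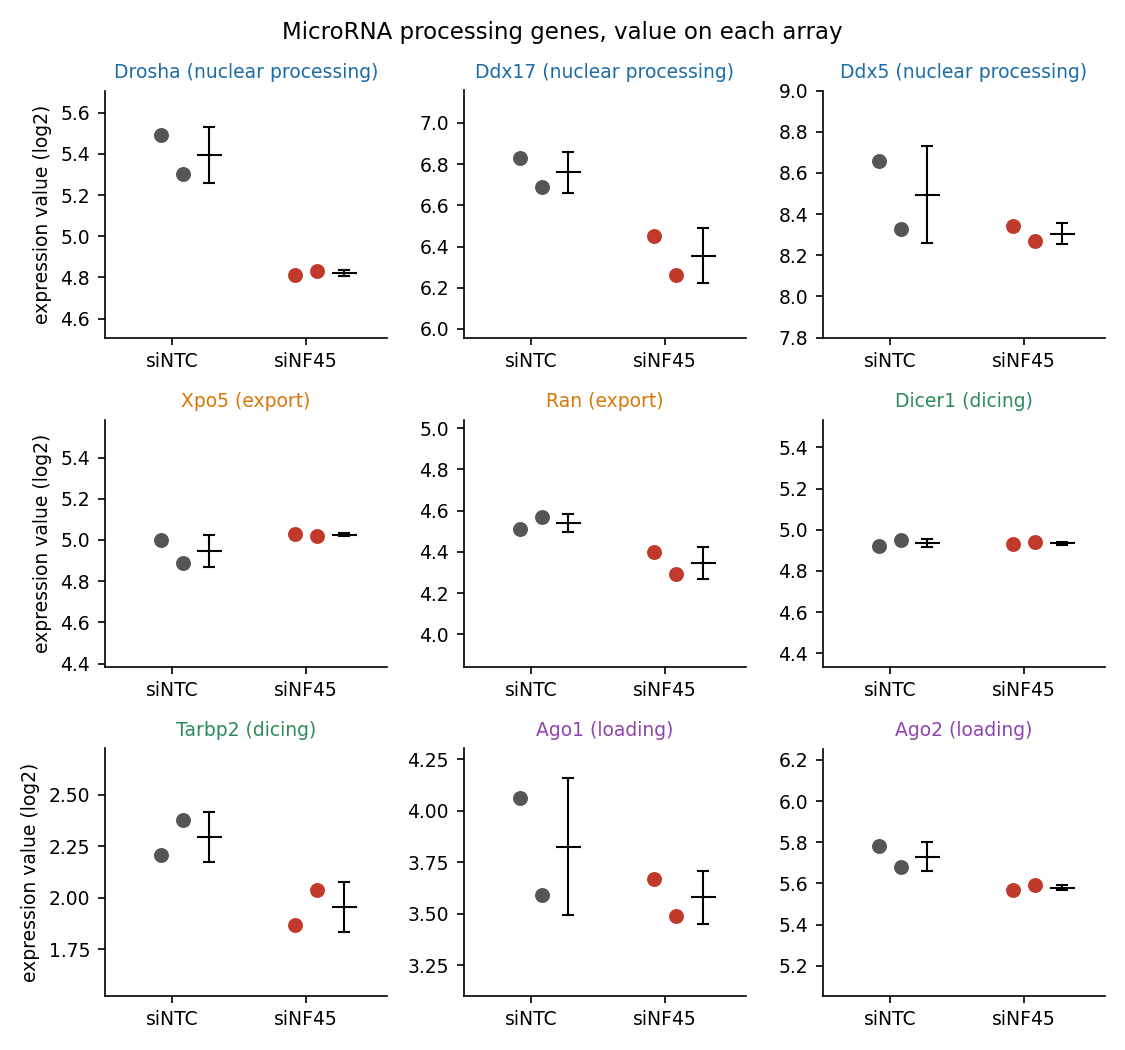
Expression value (as deposited, taken as log2) of the 9 measured microRNA processing genes on each array, with 1 panel a gene, coloured by stage. Points are arrays and the bar beside them is the mean ± SD of 2 arrays. All panels span the same 1.2 log2 units, so the gap between groups for Drosha (5.3 and 5.49 against 4.81 and 4.83) can be set against the flat Dicer1 panel (4.92 to 4.95).

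Drosha and Ddx17, of the nuclear step, had the largest differences, and Ddx5 of the same step did not. Drosha (chr15:12824804-12935291, GRCm38.p6), the nuclease that makes the first cut, read 5.49 and 5.3 in siNTC and 4.81 and 4.83 in siNF45 (log2). Both siNF45 arrays were below both controls, by at least 0.47, while the controls lay 0.19 apart and the siNF45 arrays 0.02. Its mean went from 5.40 ± 0.13 to 4.82 ± 0.01 (SD, n = 2 each), a difference of -0.575 (SE 0.13, 95% interval -0.89 to -0.26) or 1.49-fold lower, with a limma adjusted p of 0.134. Of all tested genes, 4.88% had a lower difference and 3.52% a smaller p. Without 1 array the difference of Drosha was -0.67 to -0.48.

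Ddx17 (chr15:79527696-79546764), a DEAD-box RNA helicase also called p72, read 6.83 and 6.69 in siNTC and 6.45 and 6.26 in siNF45. The groups did not overlap, and the gap of 0.24 between them was a little wider than the 0.19 between the siNF45 arrays. The difference was -0.405 (SE 0.13, 95% interval -0.74 to -0.07), 1.32-fold lower, with a limma adjusted p of 0.228. Ddx5 (chr11:106780355-106789185), its close paralogue p68, read 8.66 and 8.33 in siNTC and 8.34 and 8.27 in siNF45. The siNTC arrays lay 0.33 apart and siNTC replicate 2 lay between the siNF45 values. The difference of Ddx5 was -0.19 (SE 0.15, 95% interval -0.57 to 0.19, limma adjusted p = 0.579). It rested on 1 control array, since it was -0.03 without siNTC replicate 1 and -0.36 without siNTC replicate 2. Transcripts of close paralogues can cross-hybridize, and probe sequences were not analysed here.

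The export genes went in opposite directions, neither beyond the spread that the test allows. Xpo5 (chr17:46202811-46243598), which encodes the carrier exportin-5, read 5 and 4.89 in siNTC and 5.03 and 5.02 in siNF45. Both siNF45 arrays were just above the higher control, and the difference was 0.08 (SE 0.12, 95% interval -0.22 to 0.38, limma adjusted p = 0.784). The value without siNTC replicate 2 was 0.03 and without siNTC replicate 1 it was 0.14. Ran (chr5:129020156-129024322), the small GTPase that loads and releases the carrier, read 4.51 and 4.57 in siNTC and 4.4 and 4.29 in siNF45. The groups did not overlap, with a gap of 0.11, which equals the distance between the siNF45 arrays. Its difference was -0.195 (SE 0.12, 95% interval -0.49 to 0.10, limma adjusted p = 0.462).

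In the dicing step the enzyme and its partner read differently. Dicer1 (chr12:104687740-104751968) was the flattest member, at 4.92 and 4.95 in siNTC and 4.93 and 4.94 in siNF45. Its difference was 0 (SE 0.12), and the 95% interval of -0.29 to 0.29 bounds a change in either direction. Tarbp2 (chr15:102516077-102523676), which encodes the double-stranded RNA-binding partner TRBP, read 2.21 and 2.38 in siNTC and 1.87 and 2.04 in siNF45. The siNF45 arrays were the lower ones, with a gap of 0.17 between the groups and 0.17 between the replicates of each. Its difference was -0.34 (SE 0.14, 95% interval -0.68 to -0.0045), 1.27-fold lower, with a limma adjusted p of 0.285. Tarbp2 was the dimmest of the 9 probe sets, near the filter of 1.645, and under the 70th percentile filter of 2.75 it was not tested.

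The Argonaute genes of the loading step read slightly lower. Ago2 (chr15:73101625-73184947), which encodes the Argonaute able to cut its target, read 5.78 and 5.68 in siNTC and 5.57 and 5.59 in siNF45. The groups did not overlap, by 0.09, and the difference was -0.15 (SE 0.12, 95% interval -0.44 to 0.14, limma adjusted p = 0.573). Ago1 (chr4:126435012-126468707) read 4.06 and 3.59 in siNTC and 3.67 and 3.49 in siNF45. Its groups overlapped, the controls lay 0.47 apart, and the difference was -0.245 (SE 0.19, 95% interval -0.71 to 0.22, limma adjusted p = 0.559). That value rested on siNTC replicate 1: it was -0.01 without it and -0.48 without siNTC replicate 2. Another Argonaute gene, Ago3, chosen after its value was seen, differed by 0.01 (SE 0.13, limma adjusted p = 0.977), and Ago4 was below the filter.

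**Figure D2:**
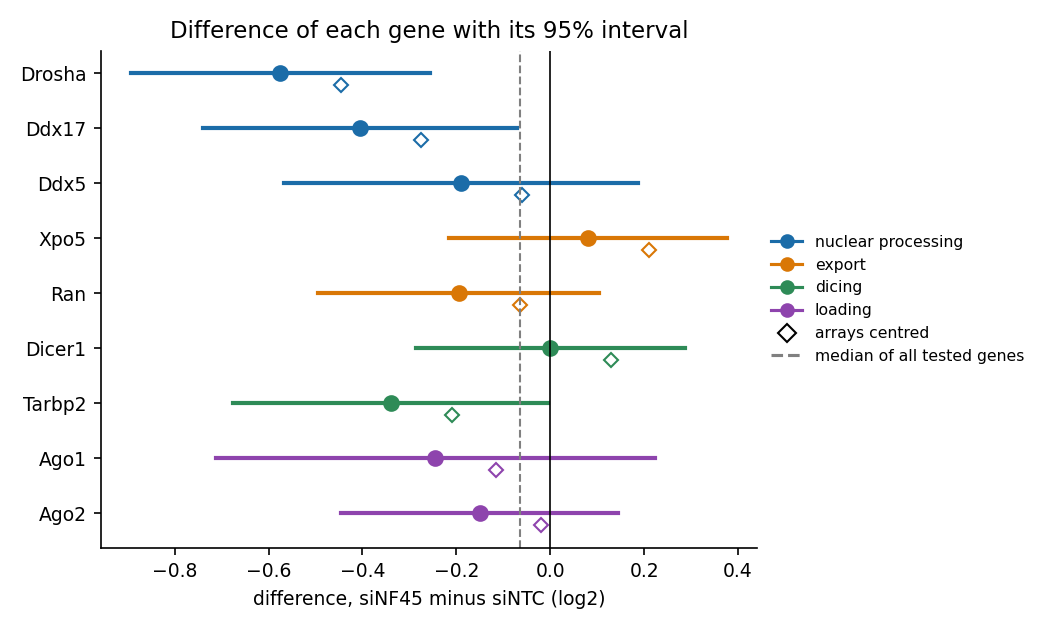
Difference between siNF45 and siNTC (log2, x axis) for each of the 9 genes, coloured by stage; filled points are limma estimates on the values as deposited, lines their 95% intervals, and open diamonds the estimates after each array was centred on the median of the tested genes. The intervals of Drosha (-0.89 to -0.26), Ddx17 (-0.74 to -0.07) and Tarbp2 lie below 0, and the dashed line is the median of all tested genes (-0.065).

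Set side by side, the stages had median differences of -0.405 for the 3 measured nuclear genes, -0.06 for the 2 export genes, -0.17 for the 2 dicing genes and -0.20 for the 2 loading genes (log2). Genes are not replicates of a stage, so no test was made between stages, and the median of a stage of 2 genes is their mean. Genes of 1 stage could differ as much as the stages did, with Dicer1 at 0 and Tarbp2 at -0.34 in dicing. The scaling of the arrays bears on all of these. Centring each array on the median of the tested genes added 0.13 to every difference and moved the median of all tested genes from -0.065 to 0.065. Drosha then stood at -0.445, Ddx17 at -0.275, Tarbp2 at -0.21, Ago1 at -0.115, Ran at -0.065, Ddx5 at -0.06, Ago2 at -0.02, Dicer1 at 0.13 and Xpo5 at 0.21. No order among the 9 changes with this shift, but the export median turned to 0.07. The loading median rested on Ago1, at -0.055 without siNTC replicate 1 and -0.34 without siNTC replicate 2, and the export median was -0.0875 without siNF45 replicate 1 and -0.0275 without siNF45 replicate 2. Over all genes the 10 calls were 9 lower and 1 higher as deposited, and 101 lower and 71 higher among 172 after centring.

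A difference between 2 genes within an array does not move when the array is centred. Quantile normalization can move it, since Ran went from -0.195 to -0.114 and Ddx5 from -0.19 to -0.178. The pairs below use the values as deposited. Among pairs that work together, Dicer1 minus Tarbp2 was 2.71 and 2.57 in siNTC and 3.06 and 2.9 in siNF45, a difference in change of 0.34. Ddx5 minus Ddx17 was 1.83 and 1.64 in siNTC and 1.89 and 2.01 in siNF45, a difference of 0.215. For Xpo5 minus Ran it was 0.275, and for Ago1 minus Ago2 -0.095, the only one of these 4 pairs whose groups overlapped. Drosha minus each of the 8 other measured members was lower on both siNF45 arrays for 7, with Tarbp2 the exception. Against all other tested genes the same held for 81.9%, so this count is near the background. The differences ran from -0.655 against Xpo5 to -0.17 against Ddx17. All 12 pairs were compared by a two-sided exact permutation test, which cannot go below 0.333, and adjusted over them the smallest p was 0.4, so that unequal change was not shown for any pair.

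**Figure D3:**
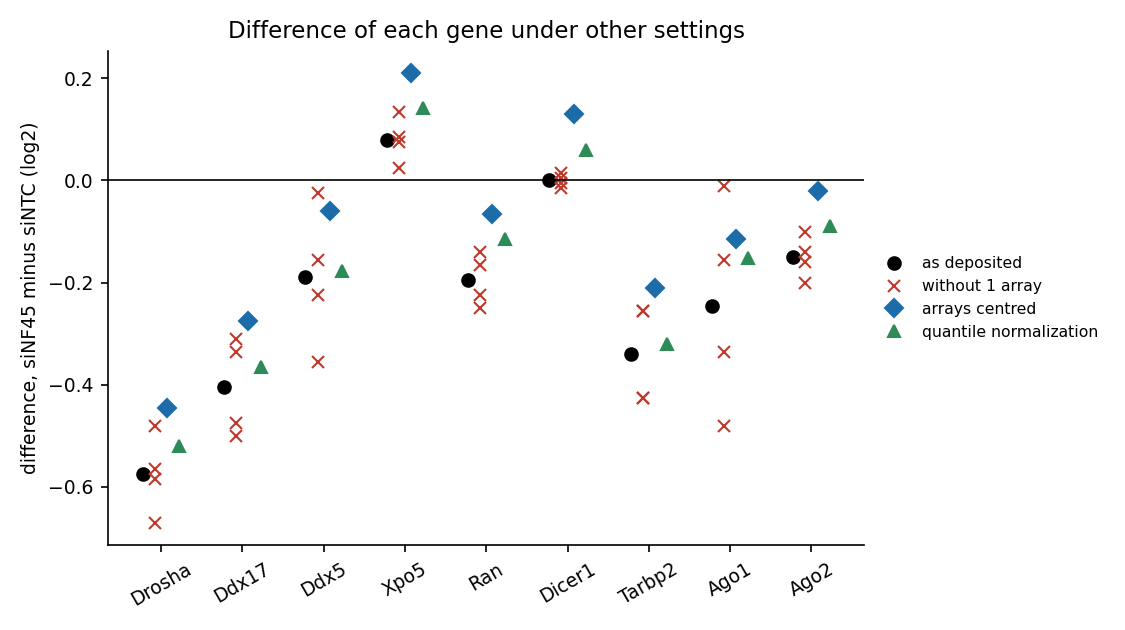
Difference between siNF45 and siNTC (log2, y axis) of each of the 9 genes as deposited (circles), without 1 array in turn (crosses, 4 fits), with arrays centred (diamonds) and after quantile normalization (triangles). Drosha stays between -0.67 and -0.445, Xpo5 stays above 0, and Ago1 and Ddx5 spread widest, from -0.48 to -0.01 and from -0.355 to -0.025.

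By position, 4 of the 9 measured genes lie on chromosome 15, namely Drosha, Ddx17, Tarbp2 and Ago2, among them the 3 with the lowest differences. The 463 tested genes of chromosome 15 had a median difference of -0.11, and 14.3% of them were lower at an unadjusted p under 0.05, against 13.2% of all tested genes. The promoters of these 3 genes are printed to show what the lowest members do and do not share. RefSeq's promoter table (GRCm38.p6) held 13 windows for 9 of the 10 genes. The 250 bases before each start were searched on both strands for CCAAT, for the GC-box core GGGCGG and for the TATA-box core TATAAA, none of which contains another. Capitals mark CCAAT, which reads ATTGG where it lies on the opposite strand. Drosha and Tarbp2 hold 3 CCAAT matches each and both Ddx17 windows none, of which the one at the upstream start is printed. Several matches were also found elsewhere. The window of Dgcr8, which has no value here, holds 4, and that of Ilf2, the gene targeted by the duplexes, holds 3. The Tarbp2 window lies inside the span given above for that gene.
Drosha, chr15:12824565-12824814, plus strand: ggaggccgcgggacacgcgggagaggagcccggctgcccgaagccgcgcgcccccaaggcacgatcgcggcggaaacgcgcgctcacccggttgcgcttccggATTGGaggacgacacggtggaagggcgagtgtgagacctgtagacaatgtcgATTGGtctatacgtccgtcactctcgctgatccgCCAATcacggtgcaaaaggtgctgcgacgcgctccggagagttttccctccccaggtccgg
Tarbp2, chr15:102517942-102518191, plus strand: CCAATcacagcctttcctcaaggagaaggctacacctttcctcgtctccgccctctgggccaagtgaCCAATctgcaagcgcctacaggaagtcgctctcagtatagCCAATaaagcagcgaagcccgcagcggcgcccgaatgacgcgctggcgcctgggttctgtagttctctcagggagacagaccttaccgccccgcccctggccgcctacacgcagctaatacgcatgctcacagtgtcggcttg
Ddx17, chr15:79546742-79546991, minus strand: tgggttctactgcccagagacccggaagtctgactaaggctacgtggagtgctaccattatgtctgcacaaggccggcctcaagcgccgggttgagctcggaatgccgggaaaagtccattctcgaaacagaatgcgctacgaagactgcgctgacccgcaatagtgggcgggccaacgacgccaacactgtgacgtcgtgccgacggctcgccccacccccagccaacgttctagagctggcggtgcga
CCAAT occurred in 7 of the 13 windows and GGGCGG in 9, against 33.8% and 32.7% of all 32851 windows of this length in the table. TATAAA occurred in 2, against 12.4%. The 2 Ago1 windows overlap and hold the same CCAAT match, so windows are not separate units. By gene, CCAAT was found in at least 1 window of 6 of the 9. GC content ran from 50.8% to 81.6%, with a median over all windows of 52.4%. GGGCGG was found in at least 1 window of 8 of the 9 genes, with Drosha the exception. A match of letters is no evidence of a bound site.

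The wider pathway was read from lists of genes around each step, none of which had a member that passed over all genes. Among the 16 tested cofactors of nuclear processing 13 lay below 0, with a median of -0.15, and 4 were lower and none higher at an unadjusted p under 0.05. Of all tested genes, 61.3% lay below 0 and 13.2% were lower by that measure. Dhx9, a helicase known to bind the NF45 complex, read 7.18 and 7.31 in siNTC and 6.81 and 6.7 in siNF45 and differed by -0.49 (SE 0.13, limma adjusted p = 0.157). The splicing-associated protein Sfpq differed by -0.42 (limma adjusted p = 0.180) and the splicing factor Srsf3 by -0.395 (0.236). Among 12 genes of the Ran cycle and nuclear transport the median was -0.13, with 2 lower at an unadjusted p under 0.05 (16.7%, near the 13.2% of all tested genes). Rcc1, the exchange factor that charges Ran with GTP, differed by -0.685 (SE 0.20, limma adjusted p = 0.189), Rangap1, which activates GTP hydrolysis by Ran, by -0.325 (0.276), and the export receptor Xpo1 by -0.25 (0.348). Rcc1 had siNF45 values of 2.42 and 2.93, further apart than its controls at 3.44 and 3.28.

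The 11 tested partners of Dicer and of Argonaute loading had a median of -0.065, equal to that of all tested genes. The co-chaperone Fkbp4 differed by -0.49 (SE 0.14, limma adjusted p = 0.188), the nuclease Snd1 by -0.44 (0.193) and Tsnax, which encodes translin-associated factor X, by -0.28 (0.303). Downstream, the 24 tested effectors of silencing were spread to both sides, with 13 below 0 and 11 above, a median of -0.06, and 2 higher and 2 lower at an unadjusted p under 0.05 (8.33% each, against 4.02% and 13.2% of all tested genes). Xrn1, the exonuclease that degrades decapped messages, read 4.08 and 4.05 in siNTC and 4.52 and 4.48 in siNF45 and differed by 0.435 (SE 0.12, limma adjusted p = 0.167). The decapping enzyme Dcp2 differed by -0.44 (0.219) and the deadenylase subunit Cnot7 by 0.37 (0.245). The 11 tested genes of microRNA tailing and decay had a median of 0.03, with Usb1, an RNA 3′ end processing enzyme, at 0.455 (limma adjusted p = 0.287), Zswim8, a ubiquitin ligase adaptor of target-directed decay, at -0.37 (0.325) and the terminal nucleotidyltransferase Tent2 at 0.20 (0.442).

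**Figure D4:**
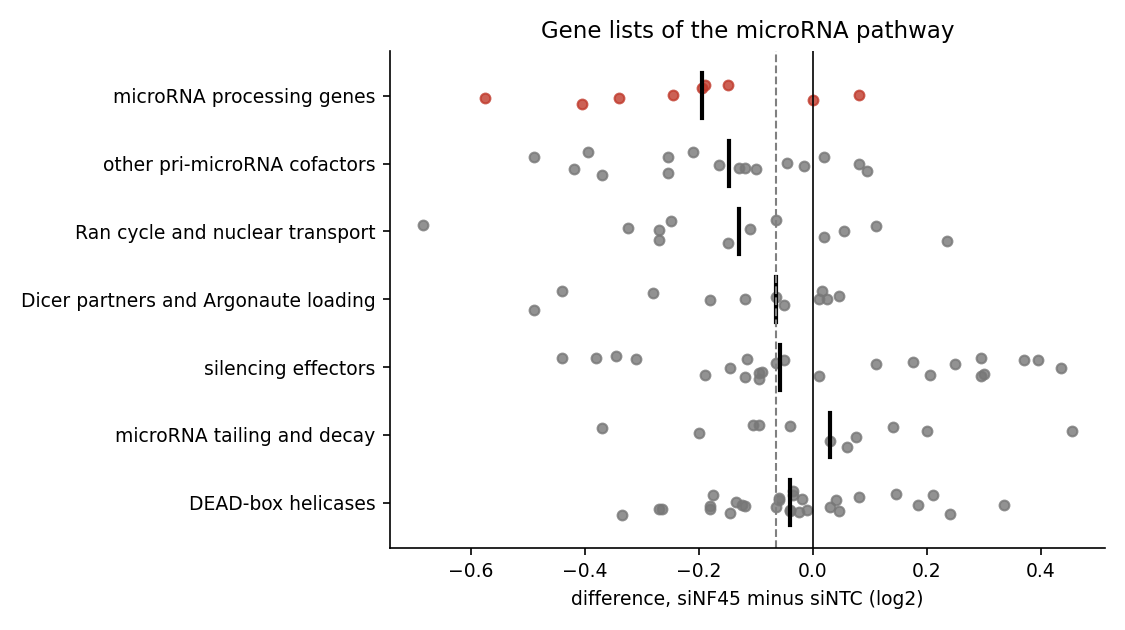
Difference between siNF45 and siNTC (log2, x axis) of each tested gene in the microRNA processing set (red) and in 6 lists of related genes (grey), with a black bar at the median of each list and a dashed line at the median of all tested genes (-0.065). Drosha is the red point furthest left, and the silencing effectors reach from -0.44 to 0.435.

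Ddx5 and Ddx17 belong to the DEAD-box helicases, whose 29 other tested genes had a median of -0.04 and ran from -0.335 to 0.335. None of these 29 passed at an unadjusted p under 0.05 in limma's test, against 13.2% of all tested genes lower and 4.02% higher. Ddx17, at -0.405, lay below all 29, and 11.4% of all tested genes had a lower difference than Ddx17. The members with the smallest p were Ddx59 at -0.265 (limma adjusted p = 0.380), Ddx31 at 0.335 (0.389) and Ddx18 at 0.21 (0.430). As a description of likeness, tested genes were ranked by the distance of their values from those of Drosha over the 4 arrays. Each gene was centred on its own mean, and predicted models and clone names were left out. The 5 nearest were Ppp1r9a (Euclidean distance 0.0245), Snx25 (0.0328), Grina (0.0433), Dlg5 (0.0456) and Psph (0.0456). Their differences ran from -0.60 for Grina to -0.565 for Ppp1r9a. Grina lies on chromosome 15, while Ppp1r9a, Snx25, Dlg5 and Psph lie on chromosomes 6, 8, 14 and 5.

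The products of the pathway could be followed only in part. Of 25 microRNA genes known in islets, 21 had a probe set of their own and 6 reached the filter, and the array does not tell a primary transcript from a hairpin or a mature microRNA. The 5p mature strands of the 3 with the smallest p are shown because they are products of these enzymes in islet cells. Mir7-1 and Mir7-2 give the same 5p strand, with 1 seed. The 3p strands are not shown, and those of Mir7-1 and Mir7-2 differ in seed.
miR-9-5p (Mir9-1, chr3:88215613-88215635, plus strand): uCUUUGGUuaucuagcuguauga
miR-7a-5p (Mir7-1, chr13:58392841-58392863, minus strand, and Mir7-2, chr7:78888295-78888317, plus strand): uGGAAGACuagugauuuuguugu
Mir9-1 read 3.78 and 3.7 in siNTC and 3.59 and 3.45 in siNF45, a difference of -0.22 (SE 0.12, limma adjusted p = 0.426). Mir7-2 read 2.48 and 2.24 in siNTC and 2.01 and 2.22 in siNF45, a difference of -0.245 (0.454), and Mir7-1 differed by -0.52 (0.649) with siNF45 values of 2.41 and 0.82. Mir375, the islet microRNA known to restrain insulin release, read 4.01 and 3.77 in siNTC and 3.85 and 3.76 in siNF45, with groups that overlapped. All 6 differences lay below 0, as did 61.3% of all tested genes, with a median of -0.21, and none was past an unadjusted p of 0.05 in limma's test.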

How the data were processed

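Expression in 4 Beta-TC-6 samples (2 siNTC, 2 siNF45) was taken from the deposited table of log2 values, which the authors made with Transcriptome Analysis Console, per the submitters' processing notes. For the version, algorithm, background correction and log base nothing is given in the sources used here. Values ran from 0.12 to 12.21 and were taken as log2, so every fold rests on that base. Centring of genes was not found, direction follows from the sample labels, and no detection call was used, so precision is limited by the number of arrays. Labelled DNA was made from 250 ng of RNA, per the labels' protocols.

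Of 41345 probe sets, 23521 had 1 symbol in the platform annotation, 1814 several and 16010 were unnamed here; by gene number, 23328 were in RefSeq's gene table (GRCm38.p6) and 0 symbols needed updating. Probe sets with 1 symbol were kept where their mean over 4 arrays reached 1.645, which is the overall median, the brightest per gene (11742 genes). The groups were tested in R 4.3.3 with limma 3.58.1 (eBayes, Benjamini-Hochberg adjustment, threshold 0.05), a procedure also tested on simulated data. Residual degrees of freedom were 2, with a prior of 3.69. Differences are siNF45 minus siNTC. Named were Ilf2, the 10 members, and from each list any gene that passed and the 3 with the smallest p. The 5 genes nearest to Drosha, with predicted models and clone names left out, were named too. Cell markers, Mir693, Mir375 and Ago3 are named beside these. The alternatives were other filters, scalings, variance estimates and thresholds, the replicate number as a block, averaged probe sets and leaving out each array. The planned comparison of Drosha with Dgcr8 was not run, since Dgcr8 has no value. The members and lists were chosen with earlier results of these data known.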

Additional observations from a re-analysis of the deposited data

How the results depend on the processing

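None of the 9 measured processing genes was called at an adjusted p under 0.05 in the fit as designed or in any alternative run. At an adjusted p under 0.10, none was called in the fit as designed, while Drosha was below 0.10 with a trend in eBayes (0.067) and at the 70th percentile filter (0.0933). At an unadjusted p under 0.05, a threshold added after the data were seen, 3 were lower, and 1 to 3 over the alternatives. Of the 116 alternative values of these genes, only those from other scalings or from leaving out an array could differ from the deposited difference. Other filters, variance estimates, the replicate block and averaged probe sets left each difference as it was, so they say nothing on direction. Few of these could turn direction. Leaving out 1 array cannot turn a gene whose groups do not overlap. Centring added 0.13 to every difference, less than the smallest fall, -0.15 for Ago2. Only Ago1 and Ddx5 without 1 array, and the values after quantile normalization, were free to turn, and none turned its direction. Dicer1, at 0 as deposited, had none to turn and reached 0.13 after centring. The adjusted p of Drosha ranged from 0.067 to 0.471 over its alternatives. Calls over all genes went from 10 as deposited to 87 at the 70th percentile filter (17 higher, 70 lower), 62 after quantile normalization (18 higher, 44 lower), 172 after centring and 174 with a trend (40 higher, 134 lower). There were 190 at an adjusted p under 0.10 (30 higher, 160 lower) and 2022 at an unadjusted p under 0.05. The cause of these shifts was not tested. An unmoderated per-gene test and the replicate block called 0 genes, and leaving out each array in turn called 0 genes each time, with 1236 to 1670 at an unadjusted p under 0.05 in limma. Those fits take the lone array of a group to be as variable as the pair. With the replicate block Drosha stood at -0.575 with a limma adjusted p of 0.258, and 1909 genes had an unadjusted p under 0.05. Same-numbered arrays deviated together at a correlation of 0.0062 over genes, so the numbers were not taken to pair the samples. The nuclear median was -0.275 after centring. The export median was 0.0137 after quantile normalization and 0.0725 after centring. The dicing median was -0.04 after centring, and 0 at the 70th percentile filter, where Dicer1 alone was left. Without 1 array, medians ran from -0.5 to -0.31 for nuclear processing, -0.0875 to -0.0275 for export, -0.22 to -0.12 for dicing and -0.34 to -0.055 for loading. With 2 arrays a group, differences of the size seen for Ran or Ago2 could not be resolved.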
